A study of Mus musculus with 8 samples.

Results

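The 39 genes described here encode structural parts of the cardiac sarcomere and the Z-disc. They were taken by gene symbol from a raw count table of 46040 genes, with actin and myosin genes left out, and all 39 symbols were found. RNA came from left ventricles (LVs) of male C57BL/6 mice aged 5 to 7 months, after angiotensin II (angII) had been infused by minipump at 0.1 mg/kg/h for 14 days. There were 4 libraries from VEGFR-1 TK-/- mice, whose Flt1 allele lacks the tyrosine kinase domain of VEGFR-1, and 4 from littermate controls. Both groups had received angII, so the values compare genotypes in pressure-stressed hearts and hold no unstressed baseline. The allele is a germline one, so its effect is not limited to a cell type.

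The labels disagree on which library is which: for all 8, the genotype tag and library name give one genotype and the sample title gives the other. Libraries were grouped by the tag so that a library is either control-tagged or TK-/- tagged below, and every direction turns around if it is the titles that are right. Flt1, read by these counts over the whole gene, was at 56.9 to 84.3 CPM (counts per 1000000 counts, normalized) in the control-tagged libraries and at 144 to 170 CPM in the TK-/- tagged ones, with a log2 difference of 1.19 ± 0.12 (SE; edgeR quasi-likelihood test, FDR = 0.00808). Total counts were 11449137 to 16239670 per library, so that all but the rarest members were counted with little sampling error. Library names refer to cardiomyocytes, whereas the study describes LV tissue. The sum of the ventricular cardiomyocyte markers was 53064 to 85616 CPM, fibroblast markers summed to 567 to 1799 CPM and endothelial markers to 1755 to 2329 CPM, so RNA of other cell types was present. Fast skeletal muscle markers summed to 4.28 to 5.72 CPM, with Myh2 and Myh4 at 0 in all 8 libraries.

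In a sarcomere, actin-based thin filaments slide along myosin-based thick filaments. Calcium binding to troponin moves tropomyosin on the thin filament and so permits the myosin heads to attach. Thin filaments are anchored in the Z-disc by alpha-actinin, thick filaments are cross-linked at the M-band, and titin spans from Z-disc to M-band. Mutations in many of these genes cause inherited cardiomyopathy, and several members have a counterpart used mainly in slow, fast or embryonic skeletal muscle.

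The cardiac isoforms dominated, and the skeletal counterparts were low or near absent. Levels were compared between genes as normalized CPM per kilobase of exon, averaged over the 8 libraries. Tnnc1, the calcium-binding troponin subunit of heart and slow muscle, was highest at 3825 ± 810 (SD, n = 8). The next were Tnni3 at 1958 ± 370, Mybpc3 at 1684 ± 302, Tpm1 at 1503 ± 161, Tcap at 1394 ± 320 and Tnnt2 at 1386 ± 220. Des and Actn2 followed at 1120 ± 84.4 and 1071 ± 205, and all other members were lower, from Myoz2 at 425 ± 36.7 downwards. At the low end stood Myom3 at 0.730 ± 0.0844, Myoz1 at 0.229 ± 0.142 and Tnni1 at 0.0952 ± 0.0420. Along this order of 39, neighbours had ranges that did not overlap at only 6 steps. These were from Tnnc1 to Tnni3, from Actn2 to Myoz2, from Smyd1 to Pdlim5, from Synpo2 to Nebl, from Pdlim3 to Myom3 and from Myom3 to Myoz1. Read within each library, Myoz2 was above Lmod2 in 8 of 8 libraries although their ranges overlapped, and Tnni3 was above Mybpc3 in 7. Tpm1 was above Tcap in 5 of 8 libraries, Tcap above Tnnt2 in 3 and Myom1 above Myom2 in 5. Exon length was the union of all annotated exons, and dividing by the longest transcript in its place moved 27 of the 39 levels by more than their spread between libraries. Tnni3 then stood at 4429, Tpm1 at 3373 and Tnnt2 at 3226 CPM per kilobase, and 4 members shifted by over 3 ranks, at most 5.

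**Figure D1:**
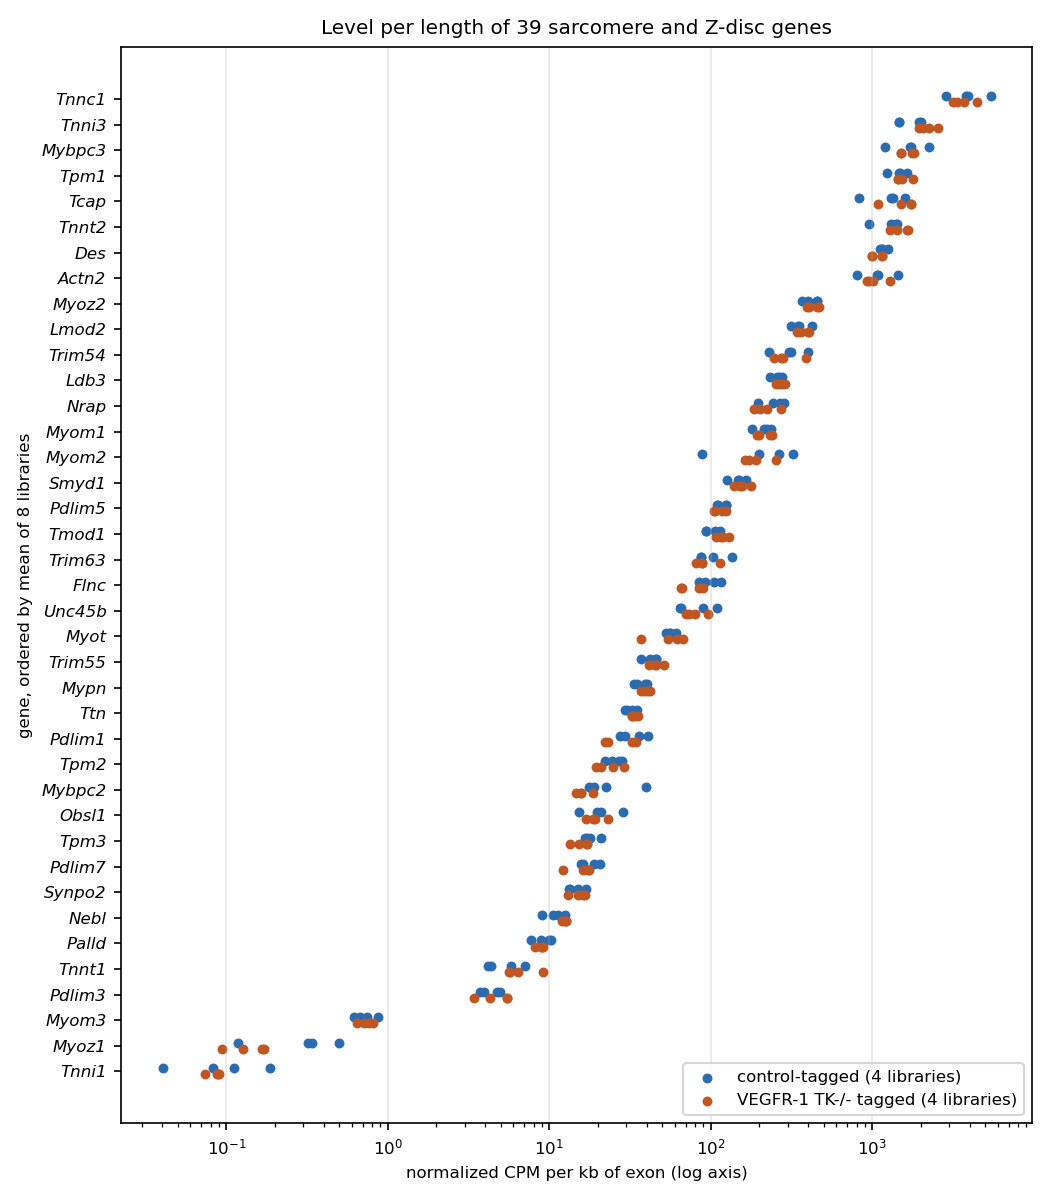
Level of each of the 39 genes as normalized CPM per kilobase of exon on a log axis, with 1 point per library and genes ordered by their mean over 8 libraries. Tnnc1 stands at 3825 CPM per kilobase and Tnni1 at 0.0952, and points of the control-tagged and the TK-/- tagged libraries lie over each other in every gene.

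Between the genotype tags, no member tested singly showed a difference that passed the test. The genes were not tested as a set. Of the 39 genes, 37 reached 1 CPM in at least 2 libraries and were tested; Tnni1 and Myoz1 did not. None of the 37 was called at an FDR under 0.1 with a change of at least 1.5-fold in either direction by edgeR's quasi-likelihood test, against 0.00738% of all 13542 genes tested, a share that is Flt1 alone. None was called by the likelihood ratio test either, which called 0.391% of all genes. An unadjusted p under 0.05 was reached by 3 of 37 members, Tnni3 with the higher level and Mybpc2 and Flnc with the lower level in the TK-/- tagged libraries. That is 8.11% of the members beside 8.96% of all genes.

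The log2 fold changes of the 37 genes ran from -0.61 to 0.36 with a median of -0.03, and the median over all genes was 0.00. Mybpc2 alone had a fitted change of 1.5-fold or more, 1 of 37 members, beside 3.6% of all genes. The value was above 0 for 18 members and below 0 for 19, and 49.7% of all genes were above 0. The 95% interval of the log2 fold change lay wholly between 1.5-fold lower and 1.5-fold higher for 29 of 37 members, which is 78.4% of them and 64.8% of all genes. For those 29, a change of the size used for calling is outside the interval; for the other 8 it is not. In none of the 37 were the control-tagged and TK-/- tagged libraries fully apart, whereas 4.98% of all genes had groups that did not overlap. The difference between group means exceeded the spread within groups for 8 members (Tnnt2, Tnni3, Tpm3, Tmod1, Nebl, Mybpc2, Flnc and Des), and for 28.7% of all genes.

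**Figure D2:**
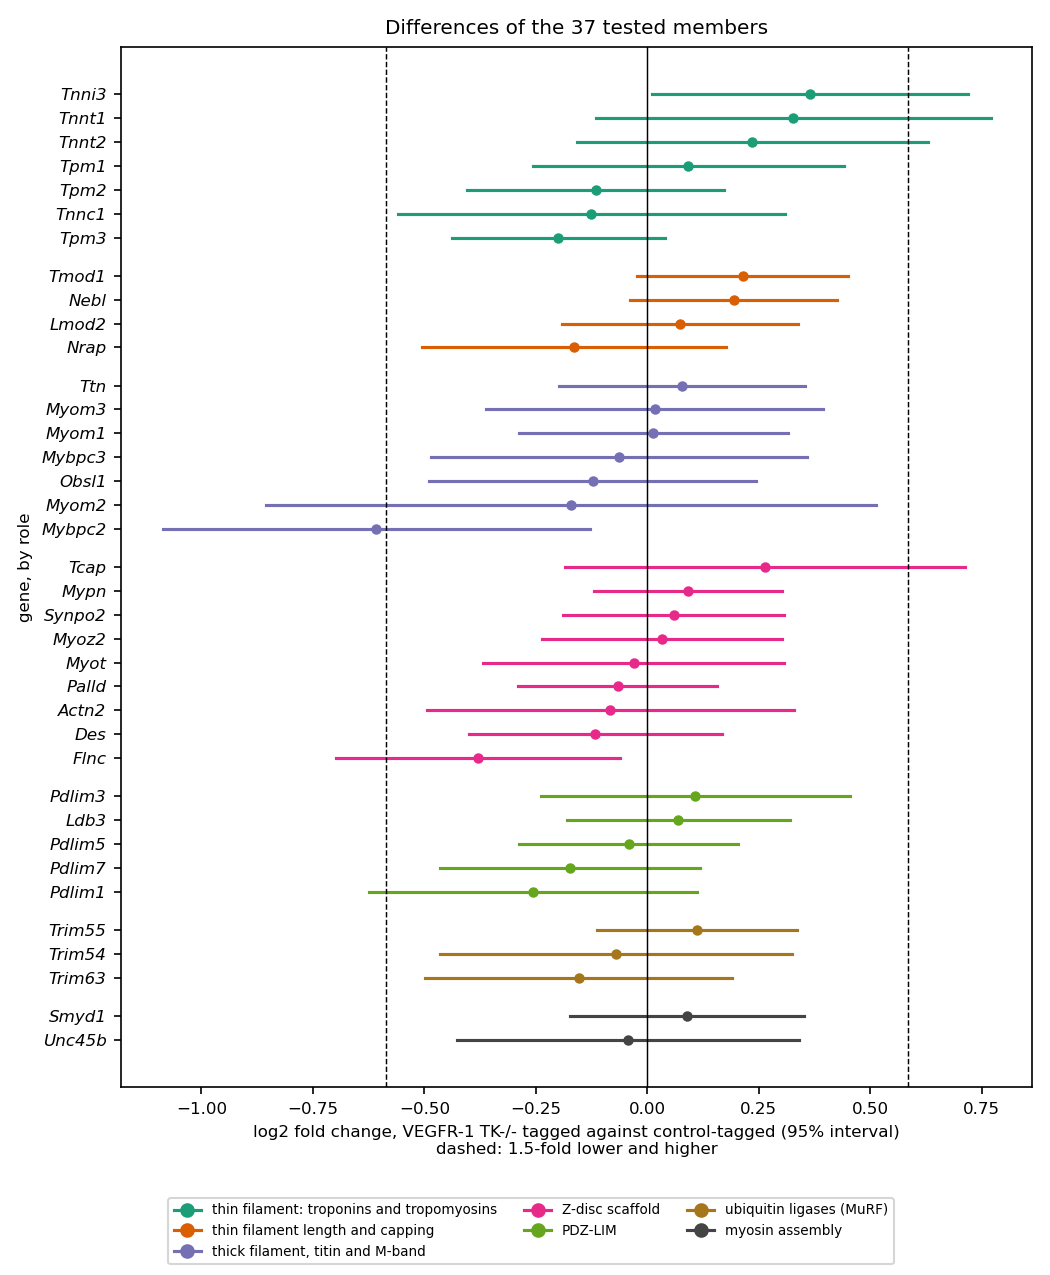
Log2 fold change of each of the 37 tested genes, TK-/- tagged against control-tagged, with bars for the 95% interval, colours for the role of the protein and dashed lines at 1.5-fold lower and 1.5-fold higher. The points run from -0.61 (Mybpc2) to 0.36 (Tnni3), 29 intervals stay between the dashed lines, and those of Tnni3, Mybpc2 and Flnc do not cross 0.

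Of the 8 troponin and tropomyosin genes, 7 were tested, 4 with a log2 fold change above 0 and 3 below, with a median of 0.09. Tnni3 (chr7:4518305-4524229 on GRCm38, minus strand) encodes cardiac troponin I, the inhibitory subunit and a target of protein kinase A. Its level in the control-tagged libraries was 4001, 3007, 3008 and 4111 CPM (replicates 1 to 4), and in the TK-/- tagged libraries it was 4266, 4616, 5286 and 4021 CPM. Control-tagged replicates 2 and 3 were the low ones, and the groups overlapped by 1 library on either side, 4111 against 4021 CPM. Means were 3532 ± 607 and 4547 ± 550 CPM (SD, n = 4), and the log2 fold change was 0.36 ± 0.16 (SE). The unadjusted p of the quasi-likelihood test in edgeR was 0.0443 and its FDR 0.551, and the exact permutation p was 0.0571 (2-sided), where 0.0286 is the smallest that 4 against 4 allows. A stretch of 4.17% of the Tnni3 exons is shared with Dnaaf3 on the same strand.

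Tnnc1 spread widely among the control-tagged libraries. It was at 4098, 2958, 5622 and 3942 CPM in the control-tagged libraries and at 3268, 3867, 4639 and 3463 CPM in the TK-/- tagged ones. The control-tagged libraries held both the lowest and the highest of the 8 values, as in 10 of 37 members (27.0%; 26.3% of all genes). The log2 fold change of Tnnc1 was -0.13 ± 0.20 (edgeR FDR = 0.881). Tnnt2, the cardiac troponin T that ties the complex to tropomyosin, averaged 9868 ± 1681 CPM in the control-tagged and 11618 ± 1386 CPM in the TK-/- tagged libraries, giving a log2 fold change of 0.24 ± 0.18. Tpm1, the main tropomyosin of the heart, had a log2 fold change of 0.09 ± 0.16, while Tpm2 and Tpm3, tropomyosins used mainly outside the heart, stood at -0.12 ± 0.13 and -0.20 ± 0.11. Tnnt1, the troponin T of slow skeletal muscle, was at 9.21 to 20.1 CPM with a log2 fold change of 0.33 ± 0.20. Tnni1, the troponin I of the embryonic heart and slow muscle, was counted with 2 to 10 reads per library and was too low to test.

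All 4 genes grouped under thin filament length, capping and assembly had intervals inside 1.5-fold in either direction. Lmod2, a leiomodin that promotes growth at the pointed end of the filament, was at 691, 623, 683 and 834 CPM in the control-tagged libraries and at 675, 710, 801 and 793 CPM in the TK-/- tagged ones. Neither group was above the other, and the log2 fold change was 0.07 ± 0.12 (edgeR FDR = 0.886). Tmod1, the tropomodulin that caps the same end, had 0.21 ± 0.11, and Nebl, the cardiac nebulin relative nebulette, had 0.19 ± 0.11. Nrap, a scaffold of thin filament assembly, had -0.16 ± 0.16. Of the Tmod1 exon bases, 32.6% lie opposite Tstd2; as the strand setting of the counting is not stated, reads of Tstd2 could be among those of Tmod1.

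Among the 7 genes of thick filament, titin and M-band, 3 had a log2 fold change above 0 and 4 below. Mybpc3 (chr2:91118144-91136516, plus strand), the cardiac myosin-binding protein C and a frequent site of hypertrophic cardiomyopathy mutations, was at 7265, 4967, 9290 and 7125 CPM in the control-tagged libraries. In the TK-/- tagged libraries it was at 6273, 7346, 7589 and 6223 CPM. These values lay inside the span of the control-tagged group, and the log2 fold change was -0.06 ± 0.19 (edgeR FDR = 0.946).

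Mybpc2 (chr7:44501699-44524656, minus strand), the fast skeletal member of the same family, had the largest difference of the 37. It was at 68.3, 63.5, 142 and 81.0 CPM in the control-tagged libraries and at 56.8, 52.7, 66.9 and 56.8 CPM in the TK-/- tagged ones. Control-tagged replicate 3 stood far above the other 7, and TK-/- tagged replicate 3 was above control-tagged replicate 2, so the groups overlapped. The means were 88.8 ± 36.5 and 58.3 ± 6.05 CPM (SD, n = 4). The log2 fold change was -0.61 ± 0.22 (95% interval -1.09 to -0.13; unadjusted p of edgeR's quasi-likelihood test 0.0174, FDR = 0.488), and the exact permutation p was 0.0571. Leaving out control-tagged replicate 3 brought the fold change on the log2 scale to -0.28. Of the Mybpc2 exon bases, 5.32% lie opposite Gm44646, whose reads could be included.

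Because scaling cancels within a library, Mybpc2 was also read as a ratio to Mybpc3. Mybpc2 made up 0.931%, 1.26%, 1.51% and 1.12% of the sum of Mybpc2 and Mybpc3 in the control-tagged libraries and 0.897%, 0.713%, 0.874% and 0.905% in the TK-/- tagged ones. All 4 control-tagged shares were above all 4 others, though by a narrow gap. The log2 ratio differed by -0.50 between the TK-/- tagged and control-tagged means, with an exact permutation p of 0.0286, the smallest this design allows, and 0.2 after Benjamini-Hochberg adjustment over the 7 isoform pairs examined. The other pairs overlapped. Their log2 ratio differences were -0.49 for Tnni1 to Tnni3, 0.08 for Tnnt1 to Tnnt2, -0.22 for Tpm2 to Tpm1, -0.29 for Tpm3 to Tpm1, -0.05 for Myom2 to Myom1 and -0.81 for Myoz1 to Myoz2, with adjusted exact permutation p between 0.3 and 0.886. The pairs with Tnni1 and Myoz1 rest on as few as 2 reads in a library.

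Titin (Ttn), the molecular spring of the sarcomere, was among the steadiest members, at 3462 to 4124 CPM in the 8 libraries, and its log2 fold change was 0.08 ± 0.13. Its log2 spread within groups was 0.09, at percentile 6.03 of all genes. Myom1, the myomesin that cross-links thick filaments in the M-band, had a log2 fold change of 0.01 ± 0.14. Myom3, a myomesin of slow and intermediate skeletal fibres, was counted with 44 to 78 reads a library and had 0.02 ± 0.17. Obsl1, an obscurin-like binding partner of titin and myomesin, had -0.12 ± 0.17.

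Myom2 (chr8:15057653-15133541, plus strand), M-protein of the M-band, varied most of the 37 and was singled out after its values were seen. It was at 1772, 778, 2859 and 2350 CPM in the control-tagged libraries and at 1440, 1688, 2230 and 1533 CPM in the TK-/- tagged ones. The highest and lowest values, both control-tagged, were 3.68-fold apart, while the median over the members was 1.55-fold and Pdlim5 was lowest at 1.19-fold. Its log2 spread within groups was 0.62, above that of 96.4% of genes, and its log2 fold change of -0.17 ± 0.31 had a 95% interval from -0.85 to 0.51.

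**Figure D3:**
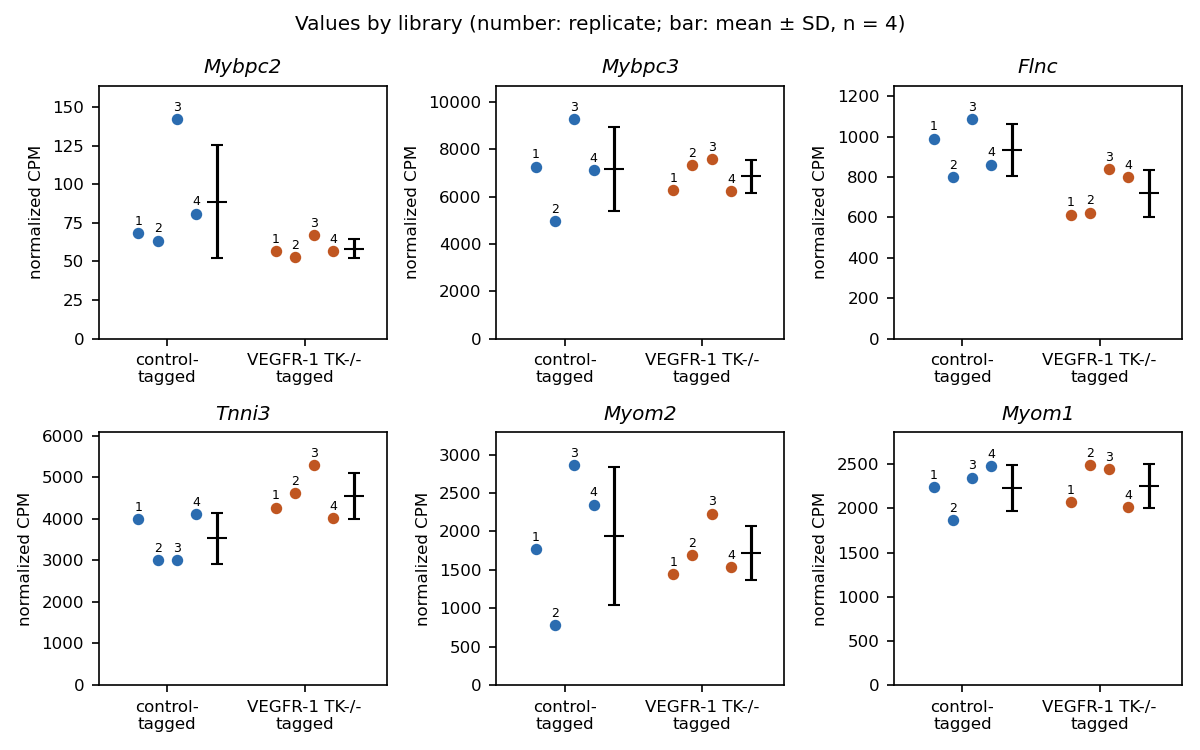
Normalized CPM of 6 genes in each library, numbered by replicate, with the mean ± SD of 4 libraries as a bar beside each group. Control-tagged replicate 3 is high at 142 CPM in Mybpc2, control-tagged replicate 2 is low at 778 CPM in Myom2, and in every panel the control-tagged and TK-/- tagged libraries overlap.

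The windows upstream of the 2 myosin-binding protein C genes and of Flnc, which hold the pair of genes compared as a ratio and the members with an unadjusted p under 0.05 on the lower side, and of Ldb3, the highest PDZ-LIM member, are shown for the muscle motifs they hold. RefSeq starts on the mouse build GRCm38.p6 were matched for 34 of the 39 genes, and Myom2, Myot, Tcap, Myoz1 and Trim55 had no match. Each window is the 250 bases before the start site, 5′ to 3′ on the strand of the gene. They are chr7:44524670-44524919 (minus strand) for Mybpc2, chr2:91117894-91118143 (plus) for Mybpc3, chr6:29433006-29433255 (plus) for Flnc and chr14:34588682-34588931 (minus) for Ldb3. Capitals mark the motifs searched on both strands: the MEF2 site, the CArG box, CATTCC and TGATAA.
Mybpc2: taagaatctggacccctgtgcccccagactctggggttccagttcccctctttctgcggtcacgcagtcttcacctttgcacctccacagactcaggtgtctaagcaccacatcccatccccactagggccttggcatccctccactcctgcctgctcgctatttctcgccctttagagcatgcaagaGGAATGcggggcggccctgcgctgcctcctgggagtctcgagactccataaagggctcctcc
Mybpc3: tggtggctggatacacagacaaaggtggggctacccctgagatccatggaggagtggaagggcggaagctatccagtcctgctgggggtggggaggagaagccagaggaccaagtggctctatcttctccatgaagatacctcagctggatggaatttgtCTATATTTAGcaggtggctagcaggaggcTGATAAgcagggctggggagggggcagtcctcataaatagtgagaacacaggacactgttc
Flnc: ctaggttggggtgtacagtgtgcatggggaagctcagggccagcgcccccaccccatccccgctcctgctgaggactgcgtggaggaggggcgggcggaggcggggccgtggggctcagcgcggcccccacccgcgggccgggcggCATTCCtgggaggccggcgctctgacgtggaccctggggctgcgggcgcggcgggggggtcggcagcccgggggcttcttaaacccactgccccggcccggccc
Ldb3: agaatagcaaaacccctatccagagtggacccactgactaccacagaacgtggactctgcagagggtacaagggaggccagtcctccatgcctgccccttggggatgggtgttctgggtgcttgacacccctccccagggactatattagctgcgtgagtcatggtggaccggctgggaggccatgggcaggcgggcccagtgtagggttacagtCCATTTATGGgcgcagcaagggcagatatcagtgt
In Mybpc2 the capitals are CATTCC on the opposite strand, 62 to 57 bases before the start. Mybpc3 holds a MEF2 site at 90 to 81 and TGATAA at 61 to 56 bases before the start, Flnc holds CATTCC at 104 to 99, and Ldb3 holds a CArG box at 35 to 26. None of the marked motifs in these 4 windows overlaps another. The window of Tnni3, the member with an unadjusted quasi-likelihood p under 0.05 on the higher side, held no match and is not shown. The same holds for Lmod2, the highest of the genes of thin filament length, capping and assembly. Over the windows of the 34 matched members, CATTCC was found in 12 members (35.3%; 14.4% of 27025 genes with such windows), among them Tnnt2, Tnnc1 and Tpm1. In these counts a gene held a motif if the window of any of its RefSeq starts did, so genes with more starts had more windows. The windows shown are those of the start nearest the annotated gene start. Nebl (CATTCC and CArG box) and Palld (CATTCC) were counted through other starts only. The MEF2 site was found in 5 (14.7%; 3.42% of genes), the CArG box in 3 (8.82%; 1.62% of genes) and TGATAA in 1 (2.94%; 9.21% of genes). These matches describe letters in the reference and not binding.

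Of the 10 Z-disc scaffold genes, 9 were tested, 4 with a log2 fold change above 0 and 5 below, with a median of -0.03. Flnc (chr6:29433256-29461883, plus strand) encodes filamin C, which cross-links actin and sits in Z-discs and intercalated discs. It was at 990, 800, 1087 and 860 CPM in the control-tagged libraries and at 613, 624, 839 and 798 CPM in the TK-/- tagged ones. TK-/- tagged replicates 1 and 2 were lowest, and replicate 3 of that group was above control-tagged replicate 2. Means were 934 ± 129 and 718 ± 117 CPM (SD, n = 4), and the log2 fold change was -0.38 ± 0.15 (SE; 95% interval -0.70 to -0.06; unadjusted p of edgeR's quasi-likelihood test 0.0235, FDR = 0.506), with an exact permutation p of 0.0571.

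Tcap, the cap of titin in the Z-disc, had the highest level per length in this group of genes. It was at 1280, 784, 1503 and 1236 CPM in the control-tagged libraries and at 1649, 1427, 1655 and 1034 CPM in the TK-/- tagged ones. Control-tagged replicate 2 and TK-/- tagged replicate 4 were the low ones of their groups, the ranges overlapped, and the log2 fold change was 0.26 ± 0.21 (edgeR FDR = 0.732). Actn2, the alpha-actinin that anchors thin filaments, was at 3066 to 5493 CPM with a log2 fold change of -0.08 ± 0.19. Des, the intermediate filament desmin that links Z-discs, was steady at 3758 to 4722 CPM with -0.12 ± 0.13.

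The remaining Z-disc scaffolds were close to 0. Myoz2, the cardiac calsarcin that binds calcineurin, had a log2 fold change of 0.03 ± 0.12, Mypn (myopalladin) 0.09 ± 0.10, Palld (palladin) -0.07 ± 0.10, Synpo2 (myopodin) 0.06 ± 0.11 and Myot (myotilin) -0.03 ± 0.15. Myoz1, the calsarcin of fast fibres, was counted with 3 to 13 reads in the control-tagged libraries and 2 to 4 in the TK-/- tagged ones and was not tested.

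None of the 5 PDZ-LIM genes, adaptors that bind alpha-actinin and signalling proteins, reached an unadjusted p under 0.05. Ldb3, also called Cypher or ZASP, was at 1685, 1412, 1609 and 1560 CPM in the control-tagged libraries and at 1538, 1680, 1756 and 1603 CPM in the TK-/- tagged ones. The values interleaved, with a log2 fold change of 0.07 ± 0.11 (edgeR FDR = 0.886). Pdlim5 (ENH) had -0.04 ± 0.11, Pdlim3 (ALP) 0.11 ± 0.16, Pdlim7 (Enigma) -0.17 ± 0.13 and Pdlim1 (CLP36) -0.26 ± 0.17. The interval of Pdlim1, from -0.62 to 0.11, was the only interval of the 5 to reach past 1.5-fold lower.

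The MuRF ubiquitin ligases, which tag sarcomere proteins for degradation, also did not differ beyond their spread. Trim54 (MuRF3) was at 436, 330, 574 and 453 CPM in the control-tagged libraries and at 355, 402, 561 and 390 CPM in the TK-/- tagged ones. The lowest and the highest library were both control-tagged, as in 10 of the 37 members, and the log2 fold change was -0.07 ± 0.18 (edgeR FDR = 0.933). Trim63 (MuRF1), an atrophy gene, had -0.15 ± 0.16 and Trim55 (MuRF2) 0.11 ± 0.10. Of the Trim54 exon bases 26.6% lie opposite Gm15469, whose reads could be included.

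Of the genes for myosin folding and assembly, Smyd1, a muscle methyltransferase, was at 750, 575, 670 and 679 CPM in the control-tagged libraries and at 631, 806, 714 and 693 CPM in the TK-/- tagged ones. The groups overlapped along most of their range, with a log2 fold change of 0.09 ± 0.12 (edgeR FDR = 0.855). Unc45b, the myosin chaperone, had -0.04 ± 0.18.

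The low and high values of many members fell to the same few libraries. Control-tagged replicate 2 was the lowest of the 8 libraries in 20 of 37 members (54.1%; 18.8% of all genes) and lay below the mean of the libraries in 33. Control-tagged replicate 3 was the highest in 15 (40.5%; 22.1% of all genes), and TK-/- tagged replicate 3 in 10 (27.0%; 10.6% of all genes). In 7 members, Tnnc1, Mybpc3, Myom2, Obsl1, Actn2, Trim54 and Unc45b, both extremes fell to control-tagged replicates 2 and 3 (18.9%; 7.38% of all genes). Members of the thin filament, the M-band, the Z-disc and the degradation machinery are among these 7. Not all members followed: Tpm3 was highest in control-tagged replicate 2, at 127 CPM, and Tnni3 was low in control-tagged replicate 3.

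**Figure D4:**
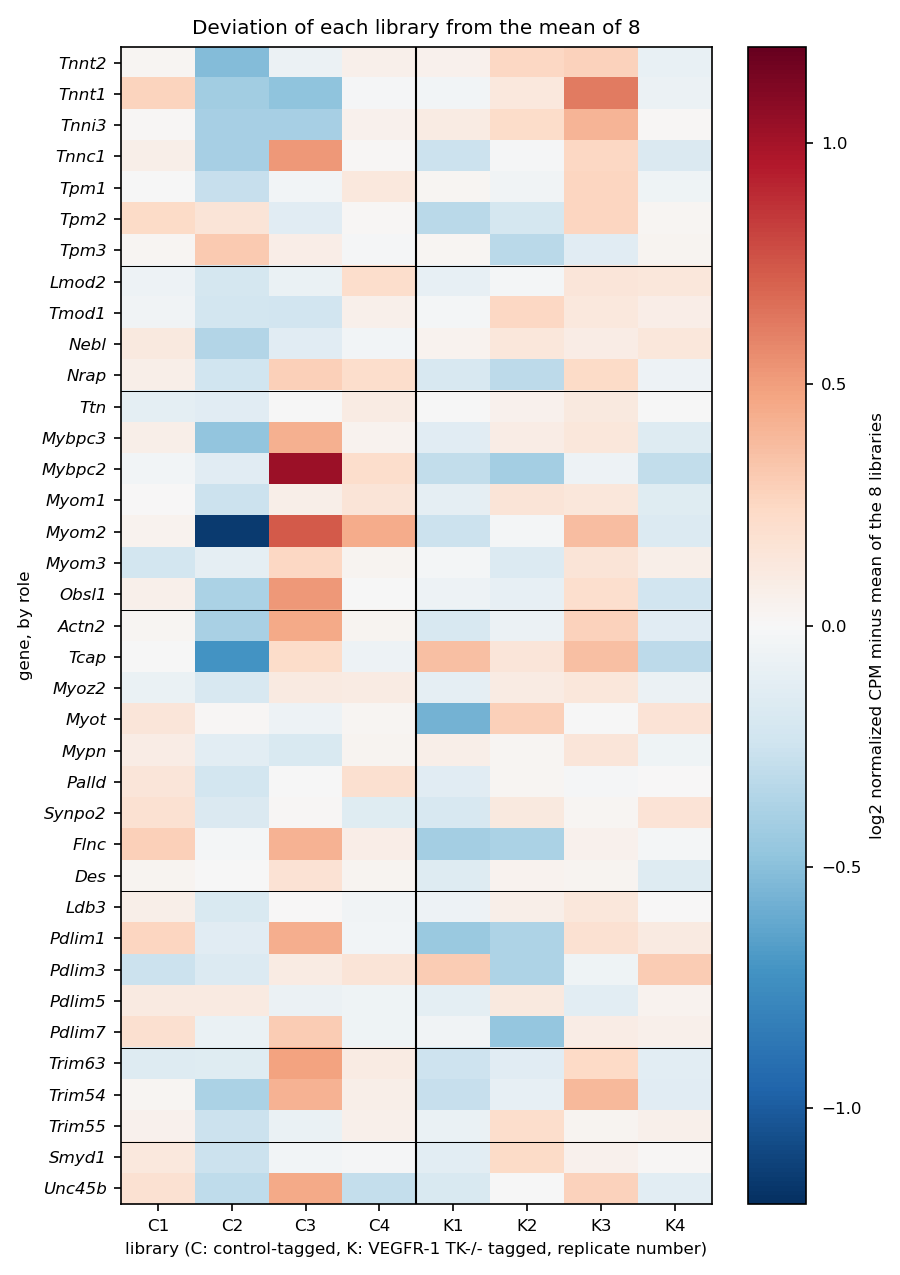
Log2 normalized CPM of the 37 tested genes in each library as the deviation from the gene's mean over 8 libraries, red for higher and blue for lower, with genes by role and a vertical line between the control-tagged (C) and TK-/- tagged (K) libraries. The column of control-tagged replicate 2 is below the mean in 33 of 37 genes, and Myom2 has the strongest colours.

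Summed over the 39 genes, the level was 64184, 50036, 70011 and 66465 CPM in the control-tagged libraries and 60544, 66155, 73230 and 59408 CPM in the TK-/- tagged ones. The means, 62674 ± 8760 and 64834 ± 6327 CPM (SD, n = 4), differed by less than the spread of either group. The difference of 3.45% of the control-tagged mean turned to -3.07% without control-tagged replicate 2 and to -1.02% without TK-/- tagged replicate 3. As a share of counts this was 6.25% ± 0.473 and 6.43% ± 0.334.

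Cell type markers also differed between libraries. Control-tagged replicate 2, lowest in the summed level, was also lowest in the sum of the 7 ventricular cardiomyocyte markers (53064 CPM, against 66148 to 85616 in the other libraries) and highest in the 6 fibroblast markers (1799 CPM), the 5 red blood cell markers (766 CPM) and the 5 endothelial markers (2329 CPM). The 7 are Myh6, Myl2, Myl3, Ryr2, Pln, Mb and Irx4. Myh6, Myl2 and Myl3 are myosin genes of the sarcomere, at 22322, 7684 and 5551 CPM in control-tagged replicate 2. The sum is therefore no measure of cardiomyocytes apart from sarcomere genes. TK-/- tagged replicate 3 was highest in the cardiomyocyte markers and lowest in the fibroblast markers (567 CPM) and leukocyte markers (82.3 CPM). Control-tagged replicate 3, highest in 15 members, was at 77328 CPM in the cardiomyocyte markers, but was also the highest library in leukocyte (154 CPM) and smooth muscle markers (1020 CPM) and close to control-tagged replicate 2 in red blood cell markers (752 CPM). Between the groups, fibroblast markers summed to 1131 to 1799 CPM in the control-tagged and 567 to 1449 CPM in the TK-/- tagged libraries, endothelial markers to 1856 to 2329 and 1755 to 2076, leukocyte markers to 117 to 154 and 82.3 to 122, and smooth muscle markers to 540 to 1020 and 468 to 711 CPM. The 3 adipocyte markers summed to at most 0.218 CPM with Plin1 at 0, and the 5 atrial markers to 3.68 to 5.98 CPM. An unadjusted p under 0.05 was reached, on the lower side, by 3 of 5 endothelial and 2 of 7 leukocyte markers, beside 5.64% of all genes, and by none of the 6 fibroblast markers, all of which had log2 fold changes below 0. Of the 7 ventricular cardiomyocyte markers, 6 had log2 fold changes above 0 (49.7% of all genes). On the higher side, 1 of the 7 reached an unadjusted quasi-likelihood p under 0.05 (3.32% of all genes). In 1 of the 7 the groups did not overlap (14.3%; 4.98% of all genes). All 5 red blood cell markers had log2 fold changes below 0, and none reached such a p. The part of cell composition in the members' values was not tested, and in bulk tissue fewer cardiomyocytes cannot be told apart from less RNA per cardiomyocyte.

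**Figure D5:**
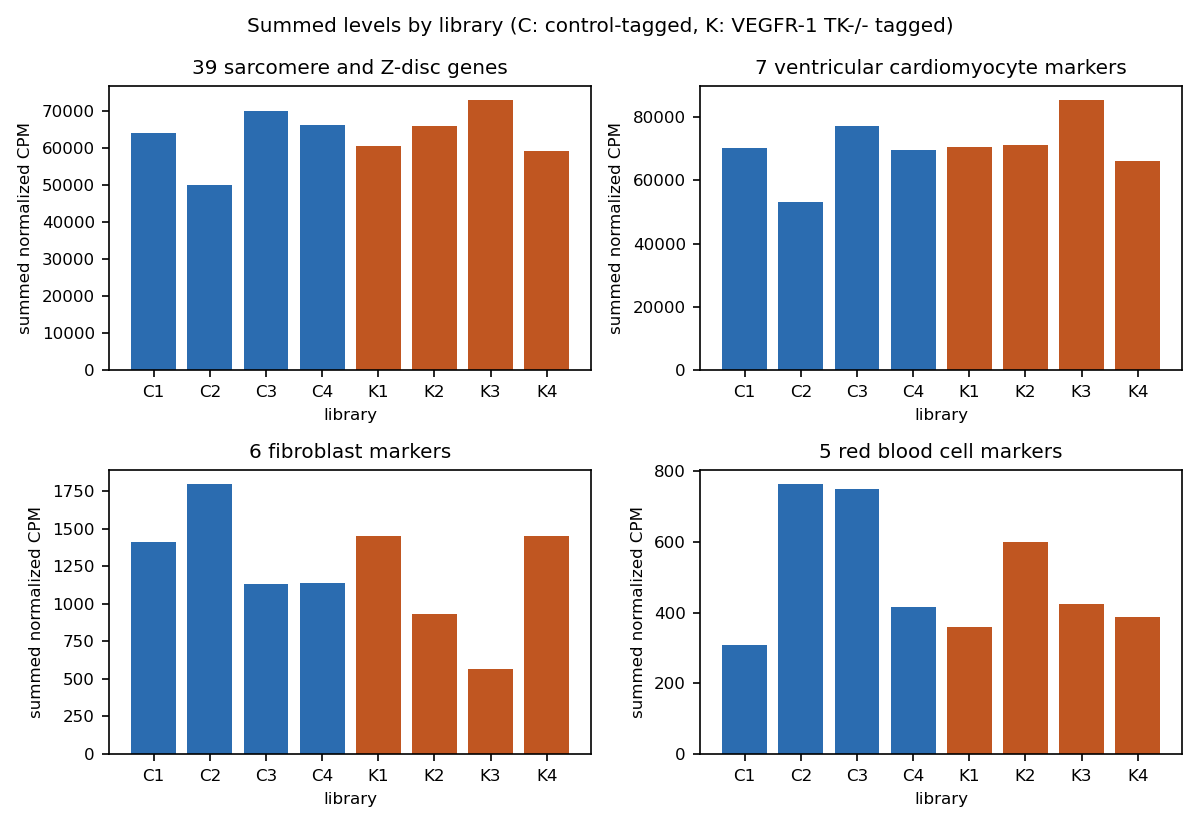
Summed normalized CPM per library, as bars from 0, of the 39 sarcomere and Z-disc genes and of the ventricular cardiomyocyte, fibroblast and red blood cell markers, for control-tagged (C) and TK-/- tagged (K) libraries. Control-tagged replicate 2 has the lowest bars for the sarcomere genes (50036 CPM) and the cardiomyocyte markers and the tallest for the fibroblast and red blood cell markers.

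The other genes of the contractile apparatus, a list of 51 with the actins and myosins, gave 46 tested genes, 25 with a log2 fold change above 0 and 21 below, with a median of 0.01. An unadjusted p under 0.05 was reached by 10 (21.7%, beside the 8.96% of all genes), 3 on the higher side (3.32% of all genes) and 7 on the lower side (5.64% of all genes). In 6 of the 46 the groups did not overlap (13.0%, beside 4.98% of all genes). None was called by the quasi-likelihood test, which called 0.00738% of all genes, and 3 were called by the likelihood ratio test, which called 0.391%. Of these, Acta1, the skeletal alpha-actin re-expressed in stressed ventricles, was at 4102, 6958, 4893 and 3125 CPM in the control-tagged libraries. In the TK-/- tagged libraries it was at 1582, 1854, 1456 and 1811 CPM, all below the lowest control-tagged value, with a log2 fold change of -1.51 ± 0.22 (FDR = 0.152 by the quasi-likelihood and 2.85e-08 by the likelihood ratio test of edgeR). The log2 fold change was -0.82 ± 0.19 for Ankrd1 and -1.57 ± 0.37 for Ankrd2, stretch-responsive ankyrin repeat proteins that bind titin. Ankrd2 was at 0.898 to 1.67 CPM in the control-tagged libraries and at 0.266 to 0.558 CPM in the TK-/- tagged ones. It passed the filter on low counts only through the control-tagged group, so its call and its lack of overlap are not independent of that filter. Fhl1, a LIM protein that binds the titin spring region, had -0.54 ± 0.13, with an FDR of 0.0542 by the likelihood ratio test but below the size used for calling. Of the 39 genes described here, Tcap and the PDZ-LIM genes are also known from stretch sensing at the Z-disc, and their log2 fold changes were between -0.26 and 0.26. Whether these 4 genes differ from the members in their response was not tested.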

How the data were processed

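The authors deposited raw counts per gene; the notes on processing name bcl2fastq 2.20.0.422, Trim Galore 0.4.4, STAR 2.5.4b and featureCounts. The labels give rRNA depletion with an unstranded kit and the study's methods a stranded poly-A kit. The alignment kept reads with several matches up to a limit; whether these were counted, and with which strand setting, is not given in the sources used here. From the counts, genes with at least 1 CPM in at least 2 libraries were kept and scaled by TMM (factors 0.917 to 1.12), and groups were compared with edgeR 4.0.16 (quasi-likelihood test, Benjamini-Hochberg over 13542 genes). The standard error is the log2 fold change over the root of F. Exact permutation tests ran over all splits into 4 and 4 on log2 CPM with a prior count of 2. The labels do not say that replicates are separate animals, and the study gives n = 4 per group for this sequencing. The p-values set the group difference against the spread between these samples, which may or may not be the spread between animals. The biological coefficient of variation was 15.1%, and no libraries agreed within counting noise (chi-square per degree of freedom 7.17 to 54.3). Gene lengths and overlaps came from GENCODE on GRCm38, and promoters from RefSeq. Besides the overlaps given above, exons of Nrap, Ttn, Myom1, Des and Unc45b overlap genes on the opposite strand. Those of Pdlim7 overlap a gene on the same strand. The test was checked on simulated data. Other fits tried were DESeq2 1.42.0, edgeR's likelihood ratio test, other scalings and filters, robust dispersion, a replicate block and leaving out each library. Full values are given for members with an unadjusted p under 0.05, members called by either edgeR test and the member with the highest level per length in each role; of the other 51 genes, those with an FDR under 0.1 in either test are named. The genes and lists were chosen with earlier results of these data known.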

Additional observations from a re-analysis of the deposited data

Results flagged for a closer look

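In the TK-/- tagged group, replicate 2 stood apart from the other 3 libraries in Tnni1, at 0.266 CPM against 0.316 to 0.325 CPM. The gap took 0.847 of the range of the group, past the Dixon limit for 4 values. The value rests on 3 reads, and it was the only such case in 78 groups of values (39 genes in each of the genotype tags); chance marks about 1 group in 20.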

How the results depend on the processing

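No member was called under any of the 16 alternative fits, and the lowest FDR of a member in any of them was 0.268. The median log2 fold change of the members ran from -0.05 to 0.07. The count of members with an unadjusted p under 0.05, 3 in the reported fit, was 2 to 4 under other tools and settings and 1 to 4 when a library was left out; it was 1 without control-tagged replicate 3 and 1 without TK-/- tagged replicate 1 or 2. All genes called, 1 as reported, became 53 with the likelihood ratio test, 32 with DESeq2, 23 without the filter on low counts and 1 to 3 with a library left out. Deviations of same-numbered libraries of the 2 groups correlated at -0.03, 0.03, 0.34 and -0.06, and those of differently numbered ones at -0.49 to 0.30. Whether the replicate numbers mark pairs was not tested. With the replicate as a block, 0 members and 1 gene in all were called, and 2 members had an unadjusted p under 0.05.

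Direction was the same in all 16 alternatives for 25 of 37 members, Tnni3, Mybpc2 and Flnc among them, and turned for 12 when a library was left out; for 8 of these (Tnnc1, Mybpc3, Myom2, Obsl1, Actn2, Trim63, Trim54 and Unc45b) control-tagged replicate 3 was such a library. Myom1, Myom3 and Myoz2 turned without control-tagged replicate 2, and Myot without control-tagged replicate 1. The causes were not tested. The ranges of log2 fold change were -0.26 to 0.053 for Tnnc1, -0.20 to 0.086 for Mybpc3, -0.063 to 0.067 for Myom1, -0.43 to 0.076 for Myom2, -0.055 to 0.11 for Myom3, -0.25 to 0.055 for Obsl1, -0.21 to 0.074 for Actn2, -0.024 to 0.073 for Myoz2, -0.14 to 0.12 for Myot, -0.27 to 0.00030 for Trim63, -0.23 to 0.070 for Trim54 and -0.15 to 0.12 for Unc45b. Leaving out control-tagged replicate 2 gave 0.12 for Tnnt2 and 0.11 for Tcap on the log2 scale, and leaving out TK-/- tagged replicate 3 gave 0.14 for Tnnt1. The log2 ratio of Tnnt1 to Tnnt2 ran from -0.046 to 0.17 and that of Myom2 to Myom1 from -0.36 to 0.16. The difference in summed level, 3.45% of the control-tagged mean, ran from -3.07% to 7.65%. For Tnni1 and Myoz1, depth limits what can be said.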
